A study of Homo sapiens with 48 samples.

Results

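Androgen depletion was examined in parental 22Rv1 cells that received the Mediator kinase inhibitor SNX631 for 72 h. The comparison set 3 libraries from cells grown in charcoal-stripped serum (CSS) against 3 libraries from cells grown in complete fetal bovine serum (FBS). These 6 libraries were chosen by their labels from the 48 libraries of the series, which cover parental 22Rv1 (Rv1-WT), a luciferase-expressing subline (Rv1-Luc) and derivatives that lost CDK8 and CDK19 and carry an active or kinase-dead copy of either kinase. 22Rv1 is an established human prostate cancer line that grows without androgen. Both groups were human cells of the same unmodified line, both received 500 nM SNX631, a small-molecule inhibitor of the paralogous kinases CDK8 and CDK19, for 72 h in medium with 10% serum, and both gave total RNA for strand-specific sequencing. The FBS group was seeded at 200000 cells per well. The CSS group was first passaged in CSS medium and was then seeded at 300000 cells per well, so serum, the earlier passage and seeding density cannot be told apart. The labels number the replicates of each group but do not say whether they were separate cultures. The spread between replicates may therefore be technical. The p-values rest on the spread within groups pooled over all 48 libraries of the series, not on that of these 6 libraries alone. The vehicle groups used beside them were the same line in FBS or CSS with 0.1% DMSO, and the Rv1-Luc groups were the subline in FBS or CSS with 500 nM SNX631, with 3 libraries in each group.

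Charcoal stripping removes steroids and other lipophilic molecules from serum, so cells in CSS are deprived of androgens and also of other hormones and lipids. Androgens drive a program of luminal prostate genes such as the kallikreins, TMPRSS2 and FKBP5, and castration-resistant cells keep part of this program at low ligand. CDK8 and CDK19, with cyclin C, MED12 and MED13, form the kinase module of Mediator, the complex that links transcription factors to RNA polymerase II, and they modulate how strongly genes respond to a change in signalling.

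The 6 libraries held between 13231860 and 17980526 estimated gene counts, with 23911 to 25272 genes at 1 count or more, and TMM factors of 1.03 to 1.06. FBS replicate 2 was the shallowest, at 13231860 counts against 16120094 to 17980526 in the other 5 libraries. Libraries of the same group differed by more than counting noise, since the chi-square statistic of each pair was 1.94 to 2.85 times its degrees of freedom. The 12 luminal prostate markers were all tested and summed to 3620 to 3740 CPM (counts scaled to a common library total) in FBS and 3830 to 3870 CPM in CSS. Of markers of other cell types, the 8 endothelial markers summed to 0.244 to 0.779 CPM over the 6 libraries with KDR at 0, and the 14 immune markers to 2.16 to 3.55 CPM with MS4A1, CD3E, CD3D and TYROBP at 0. The 10 fibroblast markers summed to 22.7 to 28.6 CPM, the 12 immunoglobulin and plasma cell markers to 108 to 132 CPM with IGKC and IGLC2 at 0, and the 8 basal markers to 71.5 to 83.3 CPM in FBS and 84.6 to 103 CPM in CSS with KRT5 at 0. Nearly all of the plasma cell sum was SDC1, which epithelial cells also express, at 1628 to 2364 counts, with every other member at 13 counts or fewer, and most of the basal sum was DST, at 873 to 1580 counts. Most of the fibroblast sum was LUM, at 213 to 271 counts, and COL1A1, at 69 to 167 counts, with every other member at 27.5 counts or fewer. The luciferase transgene was at 0 in all 6 libraries and at 10231 to 13749 counts in the 6 Rv1-Luc libraries that received SNX631.

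Depletion changed 1567 of the 20009 genes tested (7.83%), with 973 higher (4.86%) and 594 lower (2.97%) in CSS than in FBS. A gene was called when its edgeR quasi-likelihood adjusted p was below 0.01 and its fold change was over 1.5, a log2 fold change past 0.58 in either direction. The median log2 fold change over all genes tested was 0.01, and 377 of the higher and 131 of the lower genes changed by more than 2-fold. The 3 CSS libraries lay outside the range of the 3 FBS libraries for 9706 genes (48.5%), 4777 above (23.9%) and 4929 below (24.6%), so a lack of overlap alone was common. Without FBS replicate 2, 1479 genes were called. Of the genes matched by symbol to RefSeq, 93.1% of those called lower were protein coding, against 82.6% of those called higher and 84.2% of all. In these bulk samples, fewer cells of a type and less RNA per cell cannot be told apart. Levels are given throughout as CPM scaled by edgeR's TMM factors, fold changes as log2 of CSS over FBS with their standard error, and medians of gene lists beside this all-gene median. Counts called in a gene list are to be read beside the 4.86% of all genes called higher and the 2.97% called lower.

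**Figure D1:**
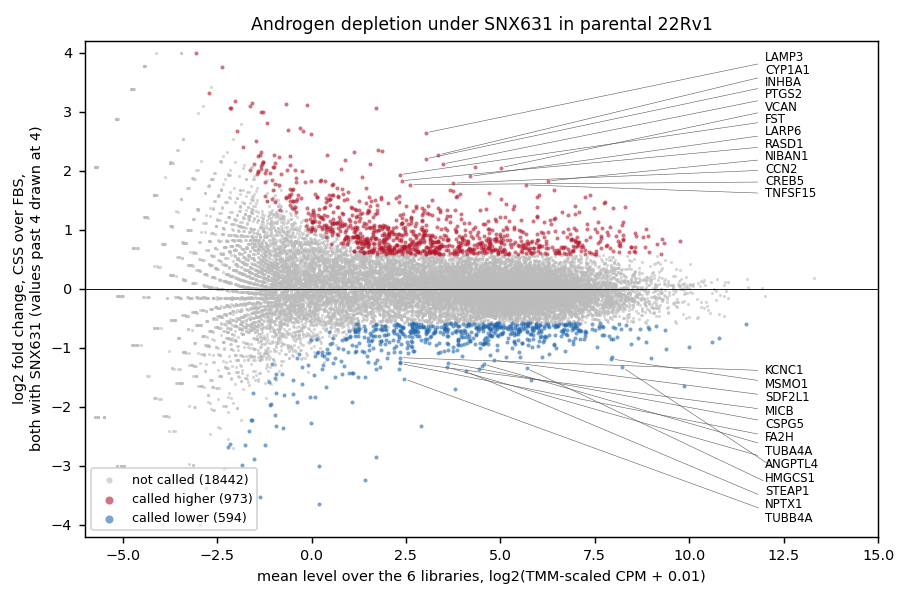
Log2 fold change of CSS over FBS under SNX631 (vertical axis) against the mean level over the 6 libraries (horizontal axis, log2 scale) for the 20009 genes tested, with the 973 genes called higher in red, the 594 called lower in blue and the rest in grey. The 12 highest and 12 lowest called genes with a symbol, a mean of at least 5 CPM and fractional counts in under 33.3% of libraries are named, from LAMP3 at 2.64 to TUBB4A at -1.53.

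Genes of the amino acid and integrated stress response rose in CSS. Of 21 ATF4-CHOP stress regulators, 12 were called higher and 0 lower, with a list median of 0.89. ATF4 is the transcription factor that is translated when eIF2 alpha is phosphorylated, and DDIT3 (CHOP), ATF3 and CHAC1, a glutathione-degrading enzyme, act downstream of it. CHAC1 stood at 18.2, 15.3 and 16.6 CPM in the 3 FBS libraries and 48.4, 46.6 and 48.5 CPM in the 3 CSS libraries, a log2 fold change of 1.51 ± 0.16 (SE, adjusted p = 5.56e-10). ATF3 stood at 69.9, 68.1 and 67.7 CPM in the 3 FBS libraries and 183, 175 and 184 CPM in the 3 CSS libraries, a change of 1.397 ± 0.056 (SE, adjusted p = 1.52e-28). Every CSS library of both genes was above every FBS library, with little spread within either group. DDIT3 was at 43.8, 40.6 and 38.7 CPM in the 3 FBS libraries and 129, 131 and 133 CPM in the 3 CSS libraries, a change of 1.68 ± 0.054 (SE, adjusted p = 7.39e-33), although 58.3% of all libraries gave it a fractional count, which makes its level uncertain. JDP2, an AP-1 repressor, changed by 1.33 ± 0.14 (SE, adjusted p = 2.32e-11). ATF4 itself was at 626, 615 and 613 CPM in the 3 FBS libraries and 681, 699 and 703 CPM in the 3 CSS libraries, and its change of 0.17 ± 0.052 (SE, adjusted p = 0.00767) was below the fold limit.

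Genes that supply amino acids and charge transfer RNA rose beside them. Of 15 amino acid transporters tested, 9 were called higher and 1 lower, with a median of 0.70. SLC6A9, a glycine transporter, was at 56.5, 41.1 and 48.1 CPM in the 3 FBS libraries and 115, 106 and 107 CPM in the 3 CSS libraries, a change of 1.17 ± 0.10 (SE, adjusted p = 9.86e-12). SLC7A2, which imports cationic amino acids, rose by 1.01 ± 0.081, and the partners of the cystine exchanger, SLC7A11 and SLC3A2, rose by 0.96 ± 0.13 and 0.94 ± 0.052. Of 16 genes of serine, one-carbon, asparagine and proline synthesis, 5 were called higher and 0 lower, led by the mitochondrial folate enzyme MTHFD2 at 0.83 ± 0.047 and the alanine transaminase GPT2 at 0.83 ± 0.038. PSPH, the last enzyme of serine synthesis, rose by 0.79 ± 0.057, and ASNS, asparagine synthetase, by 0.74 ± 0.091 with fractional counts in 58.3% of libraries. Of 20 cytosolic aminoacyl-tRNA synthetases tested, 6 were called higher and 0 lower, with a median of 0.17. SARS1, AARS1, YARS1 and CARS1, which charge serine, alanine, tyrosine and cysteine, rose by 0.77 ± 0.049, 0.75 ± 0.046, 0.72 ± 0.045 and 0.71 ± 0.054. The synthetases thus split, since the other 14 were not called and 7 of the 20 had a fold change below 0.

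Promoters of these genes were searched for TGATGCAA, on both strands, the core of the element that ATF4 and C/EBP proteins bind together, in the 300 bases from 250 before to 50 after each start that RefSeq gives on GRCh38.p14. The letters stood in 6 of the 16 synthetase promoters matched by symbol (37.5%), in 2 of 20 promoters of stress regulators (10.0%), in 2 of 9 of serine and one-carbon genes (22.2%) and in 0 of 13 of amino acid transporters. They stood in 10 of 649 promoters of genes called higher (1.54%), in 3 of 434 of genes called lower (0.691%) and in 65 of all 12633 tested genes with a promoter (0.515%). The 6 synthetases with the letters were TARS1, IARS1, CARS1, MARS1, AARS1 and NARS1. SARS1 and YARS1, both called higher, were not among them. A match is a description of these letters and does not show binding. The stretches around 3 matches are shown because CHAC1 and AARS1 were called higher while IARS1 holds the same letters close to its start and was not called; capitals mark the match, read on the opposite strand as TTGCATCA.
CHAC1 promoter (chr15:40953242-40953289, plus strand): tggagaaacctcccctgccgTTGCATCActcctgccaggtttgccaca
AARS1 promoter (chr16:70289666-70289713, minus strand): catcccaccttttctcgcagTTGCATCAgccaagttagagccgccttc
IARS1 promoter (chr9:92293698-92293730, minus strand): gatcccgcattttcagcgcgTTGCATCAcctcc
The IARS1 change was 0.18 ± 0.039 (SE, adjusted p = 0.000138), with 601, 576 and 573 CPM in the 3 FBS libraries and 658, 653 and 669 CPM in the 3 CSS libraries.

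Many immediate-early and growth factor genes also rose. Of 26 AP-1 and immediate-early genes, which are transcribed within minutes of a growth signal, 16 were called higher and 0 lower, with a median of 0.84. Besides ATF3, IER3, a survival factor, was at 4.404, 2.66 and 4.099 CPM in the 3 FBS libraries and 12.03, 8.16 and 9.73 CPM in the 3 CSS libraries, a change of 1.396 ± 0.16 (SE, adjusted p = 2.41e-10). EGR3, a zinc-finger factor, changed by 1.702 ± 0.26 (SE, adjusted p = 1.57e-07). EGR2 changed by 2.32 ± 0.55 (SE, adjusted p = 0.00041) but stayed below 1 CPM in all 6 libraries, and its call was lost at reduced depth and without FBS replicate 1, while DESeq2 gave it no adjusted p. Of 13 EGF-family ligands and receptors, 5 were called higher and 0 lower. AREG (amphiregulin) was at 0.965, 0.516 and 0.593 CPM in the 3 FBS libraries and 6.82, 5.44 and 5.33 CPM in the 3 CSS libraries, a change of 3.06 ± 0.27 (SE, adjusted p = 3.45e-14), and BTC (betacellulin) and HBEGF rose by 0.80 ± 0.14 and 0.75 ± 0.16. ERRFI1, a feedback inhibitor of the EGF receptor, rose by 0.79 ± 0.066. Of 23 genes of TGF-beta, SMAD and ID signalling, 7 were called higher and 0 lower. INHBA, which encodes the activin A subunit, was at 2.47, 2.803 and 3.34 CPM in the 3 FBS libraries and 15.1, 10.9 and 13.9 CPM in the 3 CSS libraries, a change of 2.198 ± 0.17 (SE, adjusted p = 1.82e-16). FST (follistatin), which binds and neutralises activin, was at 2.17, 2.21 and 1.89 CPM in the 3 FBS libraries and 8.44, 7.198 and 8.21 CPM in the 3 CSS libraries, a change of 1.93 ± 0.19 (SE, adjusted p = 5.46e-13). BAMBI, a pseudoreceptor, and the ligands TGFB2 and BMP2 changed by 1.53 ± 0.22, 1.105 ± 0.30 and 0.81 ± 0.10. The TGFB2 call was lost at reduced depth and without FBS or CSS replicate 3.

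Among called genes with a mean of at least 5 CPM and mostly whole counts, the highest fold change was that of LAMP3, a lysosomal membrane protein induced by stress, at 3.26, 1.92 and 1.56 CPM in the 3 FBS libraries and 16.4, 12.2 and 13.5 CPM in the 3 CSS libraries and a change of 2.64 ± 0.19 (SE, adjusted p = 1.9e-17). CYP1A1, the detoxifying enzyme that marks activity of the aryl hydrocarbon receptor, was at 3.197, 3.91 and 3.45 CPM in the 3 FBS libraries and 16.5, 16.2 and 17.8 CPM in the 3 CSS libraries, a change of 2.26 ± 0.26 (SE, adjusted p = 7.68e-09). Of 11 tested genes of that pathway, 4 were called higher and 0 lower, among them the receptor AHR at 1.15 ± 0.075, the feedback gene TIPARP at 0.71 ± 0.069 and the leucine transporter SLC7A5 at 0.77 ± 0.053. SLC7A5 is also counted in the list of amino acid transporters. PTGS2 (cyclooxygenase 2), at 4.71, 4.43 and 3.398 CPM in the 3 FBS libraries and 17.99, 16.6 and 19.2 CPM in the 3 CSS libraries, changed by 2.11 ± 0.18 (SE, adjusted p = 9.31e-15). In all of these genes each CSS library exceeded each FBS library. The 12 largest increases were ranked only among called genes with a mean of at least 5 CPM and mostly whole counts. The rest of these were VCAN (versican, a matrix proteoglycan) at 2.05, LARP6 at 1.902, RASD1, a dexamethasone-induced Ras protein, at 1.83, NIBAN1 at 1.82, CCN2 (connective tissue growth factor) at 1.79, CREB5 at 1.76 and the cytokine TNFSF15 at 1.76. Of 9 keratin transcripts tested, 4 were called higher (44.4%, beside 4.86% of all genes), some on weak ground. KRT7 was at 76.9, 70.7 and 76.5 CPM in the 3 FBS libraries and 136, 106 and 122 CPM in the 3 CSS libraries, a change of 0.70 ± 0.18 (SE, adjusted p = 0.00207). Its call was lost without FBS replicate 2 or CSS replicate 1. KRT81 rested on 1 to 2 counts in FBS and 9 to 18 in CSS. KRT80 rested on 9 to 13 counts in FBS and 20 to 30 in CSS, with fractional counts in 35.4% of libraries. PTPRC, an immune marker, was called higher from 0 counts in the FBS libraries and 2 to 6 counts in the CSS libraries, and its call was lost without any 1 of the FBS replicates and without CSS replicate 3, while DESeq2 gave it no adjusted p.

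Cytosolic heat shock proteins were lower in CSS. Of 29 heat shock proteins and chaperonins, 0 were called higher and 9 lower, with a median of -0.36, and 27 of the 29 had a fold change below 0. These proteins fold nascent and damaged proteins in the cytosol. HSPA8, the constitutive Hsc70, fell from 1346, 1493 and 1379.5 CPM in the FBS libraries to 447, 449 and 445 CPM in the CSS libraries, a change of -1.65 ± 0.043 (SE, adjusted p = 1.4e-37). HSPA1A, an inducible Hsp70, fell from 13.3, 11.7 and 12.4 CPM to 2.31, 2.45 and 2.66 CPM, a change of -2.33 ± 0.15 (SE, adjusted p = 4.36e-20), and its near-identical copy HSPA1B changed by -1.55 ± 0.055 (SE, adjusted p = 3.91e-31). Reads of the copies can be split between them, and 83.3% and 81.2% of libraries gave them fractional counts, against 62.5% for HSPA8, so their separate levels are uncertain. HSPB1, a small heat shock protein with a fractional count in 0% of libraries, fell from 238, 264 and 249 CPM to 127, 130.3 and 119 CPM, a change of -0.99 ± 0.06 (SE, adjusted p = 6.76e-19). No CSS library of these 4 genes reached the lowest FBS library.

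The promoters of the heat shock list were searched for GAANNTTC, a pair of inverted units of the element that heat shock factor binds. It stood in 7 of 25 (28%), in 43 of 649 promoters of genes called higher (6.63%), in 27 of 434 of genes called lower (6.22%) and in 602 of 12633 of all tested genes (4.77%). Some lists of other functions came near the first share, such as cytosolic ribosomal proteins in 5 of 21 (23.8%) and androgen synthesis and glucuronidation in 3 of 14 (21.4%). Others held no match, such as the sterol list in 0 of 19. HSPA8 and HSPA1A are shown because they had the lowest fold changes of the list; capitals mark each match.
HSPA8 promoter (chr11:123062159-123062386, minus strand): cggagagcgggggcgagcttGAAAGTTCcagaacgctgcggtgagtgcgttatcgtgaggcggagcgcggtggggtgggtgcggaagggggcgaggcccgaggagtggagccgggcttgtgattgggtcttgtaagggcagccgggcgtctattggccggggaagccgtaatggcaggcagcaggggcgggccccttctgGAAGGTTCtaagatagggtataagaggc
HSPA1A promoter (chr6:31815417-31815464, plus strand): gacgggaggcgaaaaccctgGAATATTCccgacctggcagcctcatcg
The HSPA8 matches began 230 and 50 bases before the start, and the HSPA1A match 106 bases before it.

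Tubulin transcripts, which encode the subunits of microtubules, mostly fell. Of 18 tested, 1 was called higher and 11 lower, with a median of -0.70. TUBB4B was at 685, 723 and 699 CPM in the 3 FBS libraries and 316, 320.2 and 302 CPM in the 3 CSS libraries, a change of -1.17 ± 0.048 (SE, adjusted p = 3.75e-28), and TUBB, the major beta tubulin, at 1329.8, 1402 and 1324 CPM in the 3 FBS libraries and 657, 708 and 667 CPM in the 3 CSS libraries, a change of -0.997 ± 0.038 (SE, adjusted p = 8.17e-30). The CSS and FBS libraries were far apart for both. TUBB4A, TUBB3 and TUBA4A, isotypes that are abundant in neurons or muscle, fell by 1.53 ± 0.18, 1.36 ± 0.078 and 1.28 ± 0.093 on the log2 scale, TUBB3 with fractional counts in 64.6% of libraries. The 1 member called higher was TUBE1, epsilon tubulin of the centriole, at 0.93 ± 0.063 (SE, adjusted p = 7.63e-19); it is named here after its value was seen.

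Enzymes of sterol synthesis fell in CSS. Of 26 genes of sterol synthesis and uptake, 0 were called higher and 14 lower, with a median of -0.61, and 24 of the 26 had a fold change below 0. HMGCS1, the synthase that makes HMG-CoA, was at 405, 455 and 428 CPM in the 3 FBS libraries and 152, 193 and 166 CPM in the 3 CSS libraries, a change of -1.33 ± 0.14 (SE, adjusted p = 1.65e-09). MSMO1, a sterol demethylase, INSIG1, the sterol sensor that retains SREBP, and MVD, of the mevalonate pathway, changed by -1.19 ± 0.10, -1.16 ± 0.11 and -1.103 ± 0.10. The letters TCACNCCAC, a form of the sterol regulatory element, stood in 1 of 19 promoters of the sterol list (5.26%), that of SREBF2. They stood in 6 of 649 promoters of genes called higher (0.924%), in 7 of 434 of genes called lower (1.61%) and in 136 of 12633 of all tested genes (1.08%). Some lists of other functions also held 1 match, such as polyamine metabolism in 1 of 12 (8.33%). Of 22 genes of fatty acid synthesis and desaturation, 0 were called higher and 4 lower, with a median of -0.33: ACSS2 (acetyl-CoA synthetase) at -1.002 ± 0.12, the elongases ELOVL6 and ELOVL5 at -0.83 ± 0.067 and -0.66 ± 0.037, and ACSL4 at -0.74 ± 0.15. Among PPAR and LXR targets the called genes went opposite ways, PDK4 (pyruvate dehydrogenase kinase) from 78.1, 73.6 and 76.7 CPM to 226, 209 and 237 CPM and ANGPTL4 (an inhibitor of lipoprotein lipase) from 17.1, 16.2 and 18.5 CPM to 6.42, 7.41 and 6.79 CPM, changes of 1.55 ± 0.06 (SE, adjusted p = 2.51e-29) and -1.33 ± 0.14 (SE, adjusted p = 2.17e-11). FA2H, a fatty acid hydroxylase, fell by 1.27 ± 0.14 on the log2 scale.

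Hypoxia targets and glycolytic enzymes fell, 12 of 34 tested, with 1 called higher and a median of -0.47. LDHA, lactate dehydrogenase, was at 860.1, 930.1 and 869 CPM in the 3 FBS libraries and 433, 447 and 435 CPM in the 3 CSS libraries, a change of -1.02 ± 0.069 (SE, adjusted p = 3.44e-15). PFKFB4 and PFKFB3, which set the level of the glycolytic activator fructose 2,6-bisphosphate, were at 19.6, 23.8 and 20.8 CPM in the 3 FBS libraries and 6.13, 7.04 and 6.52 CPM in the 3 CSS libraries and at 50.4, 53.4 and 53.7 CPM in the 3 FBS libraries and 23.9, 26.02 and 28.04 CPM in the 3 CSS libraries, changes of -1.69 ± 0.18 (SE, adjusted p = 1.47e-09) and -1.01 ± 0.12 (SE, adjusted p = 4.72e-09). ALDOC, an aldolase, changed by -1.08 ± 0.13. The 1 member called higher was VEGFA, a hypoxia target that growth and stress signals also induce, at 0.65 ± 0.068 (SE, adjusted p = 1.1e-10). It is named after its value was seen. In all, 6 of the 34 had a fold change above 0. With a mean below 5 CPM over the 6 libraries, and chosen after their values were seen, BHLHE40, a hypoxia-induced repressor, fell from 5.73, 6.05 and 5.55 CPM to 0.8096, 0.7997 and 0.761 CPM and RFX6 from 2.78, 1.62 and 1.94 CPM to 0.116, 0.107 and 0.272 CPM, changes of -2.86 ± 0.41 (SE, adjusted p = 4.49e-07) and -3.64 ± 0.37 (SE, adjusted p = 3.45e-12). The letters ACGTG, the core of the hypoxia response element, stood in 12 of 31 promoters of the list (38.7%), against 127 of 649 of genes called higher (19.6%), 116 of 434 of genes called lower (26.7%) and 3291 of 12633 of all tested genes (26.1%). Lists of other functions held them as often or more, among them ribosome biogenesis in 14 of 25 (56.0%), lysosome and autophagy in 12 of 26 (46.2%) and tubulins in 7 of 18 (38.9%). The LDHA promoter is shown because LDHA was called lower and held several copies of these letters; capitals mark 5 matches over both strands, 4 of which overlap in pairs.
LDHA promoter (chr11:18394358-18394514, plus strand): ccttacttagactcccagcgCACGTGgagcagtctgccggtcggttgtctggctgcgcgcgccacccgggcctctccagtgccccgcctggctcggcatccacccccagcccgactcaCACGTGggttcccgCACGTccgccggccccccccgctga

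Of 33 androgen response genes tested, 1 was called higher and 4 lower (15.2% in all, beside 7.83% of all genes), with a median of -0.14. SLC45A3 (prostein) was at 14.7, 15.6 and 15.4 CPM in the 3 FBS libraries and 7.98, 7.304 and 6.68 CPM in the 3 CSS libraries, a change of -1.06 ± 0.11 (SE, adjusted p = 6.31e-12). RAB3B, a vesicle GTPase, and CHRNA2, a nicotinic receptor subunit, fell by 0.92 ± 0.067 and 0.87 ± 0.072 on the log2 scale, and TSC22D1 rose by 0.78 ± 0.044. Of the canonical targets, 3 that did not pass the limits are given: KLK2 was at 10.7, 10.7 and 9.600 CPM in the 3 FBS libraries and 12.1, 12.3 and 10.6 CPM in the 3 CSS libraries, a change of 0.18 ± 0.18 (SE, adjusted p = 0.479); KLK3 (PSA) at 3.74, 5.16 and 4.48 CPM in the 3 FBS libraries and 6.25, 5.23 and 6.25 CPM in the 3 CSS libraries, a change of 0.41 ± 0.16 (SE, adjusted p = 0.0369); TMPRSS2 at 42.2, 45.4 and 46.2 CPM in the 3 FBS libraries and 41.1, 41.96 and 38.4 CPM in the 3 CSS libraries, a change of -0.14 ± 0.064 (SE, adjusted p = 0.0749). The FBS and CSS libraries overlapped for KLK2 and were apart for KLK3 and TMPRSS2. FKBP5, a chaperone of steroid receptors, had an adjusted p below 0.01 with a fold under 1.5, at -0.42 ± 0.043. Of prostate cancer surface antigens, STEAP1 was at 71.5, 78.7 and 72.97 CPM in the 3 FBS libraries and 29.3, 29.3 and 28.7 CPM in the 3 CSS libraries, a change of -1.35 ± 0.067 (SE, adjusted p = 1.48e-24), and STEAP2 fell by 0.63 ± 0.058, while NECTIN4 and the death receptor TNFRSF10B rose by 0.99 ± 0.19 and 0.82 ± 0.046.

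Genes of other hormones in serum did not move one way. Of 28 steroid and nuclear receptors 2 were called, both higher (7.14%, near the 7.83% of all genes). NR3C1, the glucocorticoid receptor, was at 36.6, 36.1 and 39.6 CPM in the 3 FBS libraries and 62.98, 61.6 and 64.7 CPM in the 3 CSS libraries, a change of 0.75 ± 0.066 (SE, adjusted p = 1.77e-14), and NR1D2, a clock repressor, changed by 0.66 ± 0.059. Among targets of glucocorticoid, thyroid, retinoid and vitamin D receptors, TSC22D3 (GILZ) was at 221, 164 and 183 CPM in the 3 FBS libraries and 432, 382 and 424 CPM in the 3 CSS libraries, a change of 1.12 ± 0.10 (SE, adjusted p = 5.03e-11), and DUSP1, a MAP kinase phosphatase that is also an immediate-early gene, rose by 0.99 ± 0.073. KLF9, which glucocorticoid and thyroid hormone induce, was lower at 48.6, 46.8 and 45.8 CPM in the 3 FBS libraries and 25.3, 24.8 and 25.5 CPM in the 3 CSS libraries, a change of -0.90 ± 0.072 (SE, adjusted p = 4.58e-16). GATA3 was the 1 luminal transcription factor called of 15 (6.67%, near the 7.83% of all genes). It was at 12.5, 12.7 and 11.9 CPM in the 3 FBS libraries and 33.4, 29.1 and 31.4 CPM in the 3 CSS libraries, a change of 1.34 ± 0.11 (SE, adjusted p = 1.17e-15). Of 17 tested genes of androgen synthesis and glucuronidation, 5 were called higher and 1 lower: UGT2B10 and UGT2B17, which conjugate steroids, changed by 1.403 ± 0.24 and 0.92 ± 0.24, AKR1C2, which inactivates dihydrotestosterone, by 0.84 ± 0.11, and HSD17B6 by -0.81 ± 0.14. The UGT2B genes are near-identical in sequence, so their separate values are uncertain, and the UGT2B17 call was lost at reduced depth and without FBS or CSS replicate 3.

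Some replication genes were lower in CSS and most mitotic genes were not called. Of 34 genes of DNA replication and G1/S, 1 was called higher (2.94%) and 4 lower (11.8%), beside 4.86% and 2.97% of all genes. Their median was -0.36, and 30 of the 34 had a fold change below 0. GINS1, of the replicative helicase, was at 68.4, 71.6 and 69.8 CPM in the 3 FBS libraries and 37.2, 33.96 and 36.7 CPM in the 3 CSS libraries, a change of -0.96 ± 0.051 (SE, adjusted p = 3.92e-23). PCNA, the sliding clamp, and FEN1, the flap endonuclease, fell by 0.69 ± 0.045 and 0.66 ± 0.043, and CDKN1B, the cyclin-dependent kinase inhibitor p27, rose by 0.81 ± 0.037. Of 30 mitotic genes, 0 were called higher and 1 lower (3.33%, near the 2.97% of all genes), with a median of -0.14: CDC20 at -0.70 ± 0.05 (SE, adjusted p = 8.77e-18). MKI67, the proliferation marker Ki-67, was at 367, 310.2 and 320.4 CPM in the 3 FBS libraries and 310.0, 270.0 and 304 CPM in the 3 CSS libraries, a change of -0.18 ± 0.091 (SE, adjusted p = 0.128). Of 31 nuclear-encoded subunits of the respiratory chain, 0 were called higher and 5 lower (16.1%), with a median of -0.28, led by ATP5MC1 at -0.96 ± 0.059 and NDUFB8 at -0.86 ± 0.064. Of 30 cytosolic ribosomal protein genes 0 were called higher and 0 lower, with a median of 0.04.

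MYC, a transcription factor of growth genes, was at 302, 283 and 278 CPM in the 3 FBS libraries and 370.3, 353 and 360.4 CPM in the 3 CSS libraries, a change of 0.33 ± 0.048 (SE, adjusted p = 9.73e-08), and was not called, while MYCL was called at 1.16 ± 0.16 (SE, adjusted p = 1.03e-08). No member of the Mediator kinase module passed the limits. CDK8, CCNC, MED12 and MED13 changed by -0.06 ± 0.059, -0.16 ± 0.048, 0.37 ± 0.074 and 0.26 ± 0.079. CDK19 was at 196, 187 and 199 CPM in the 3 FBS libraries and 278, 261 and 281 CPM in the 3 CSS libraries, a change of 0.49 ± 0.043 (SE, adjusted p = 9.47e-15).

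Besides the genes marked above, fractional counts in at least 33.3% of the libraries make the values of AARS1, AHR, APLN, CALR, FEN1, HSP90B1, ISG20, MAP1LC3B, MED13, NDUFB8, PFKFB4, SCG2, SLC7A5, TGFB2, TNFRSF10B and TOX3 uncertain. For the lists that follow, the share called is given beside the 7.83% of all genes. Of 25 interferon-stimulated genes 2 were called higher and 3 lower (20%), with OAS3 at -0.84 and ISG20 at 0.78. Of 23 NRF2 antioxidant genes 3 were called higher and 1 lower (17.4%), with HMOX1, heme oxygenase, at 4.404, 3.61 and 3.83 CPM in the 3 FBS libraries and 1.33, 1.65 and 1.195 CPM in the 3 CSS libraries and a change of -1.502 ± 0.21 (SE, adjusted p = 4.18e-08). Of 26 epithelial junction genes 2 were called higher and 1 lower (11.5%), with DSC2 (desmocollin) at 0.89, ESRP1 at 0.69 and CLDN4 at -0.66, and CDH2, N-cadherin, was the 1 of 11 mesenchymal genes called (9.09%), at 0.74. Of 34 lysosome and autophagy genes 3 were called higher and 1 lower (11.8%), with GABARAPL1 and MAP1LC3B, which coat autophagosomes, at 0.79 and 0.70. Of 20 Wnt pathway genes 1 was called higher and 2 lower (15%), with DKK1, a secreted inhibitor, at 1.04 and TCF7 at -1.01. SCG2 and CHGB, granins of secretory vesicles, were the 2 of 19 neuroendocrine genes called (10.5%), at 1.56 and 0.79. The 12 largest decreases were ranked only among called genes with a mean of at least 5 CPM and fractional counts in under 33.3% of libraries. Those not yet given were NPTX1 (neuronal pentraxin) at -1.404, CSPG5 at -1.26, MICB (a stress ligand of NK cells) at -1.24, SDF2L1 at -1.21 and the potassium channel KCNC1 at -1.17. Some genes outside this ranking, given above, fell further.

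**Figure D2:**
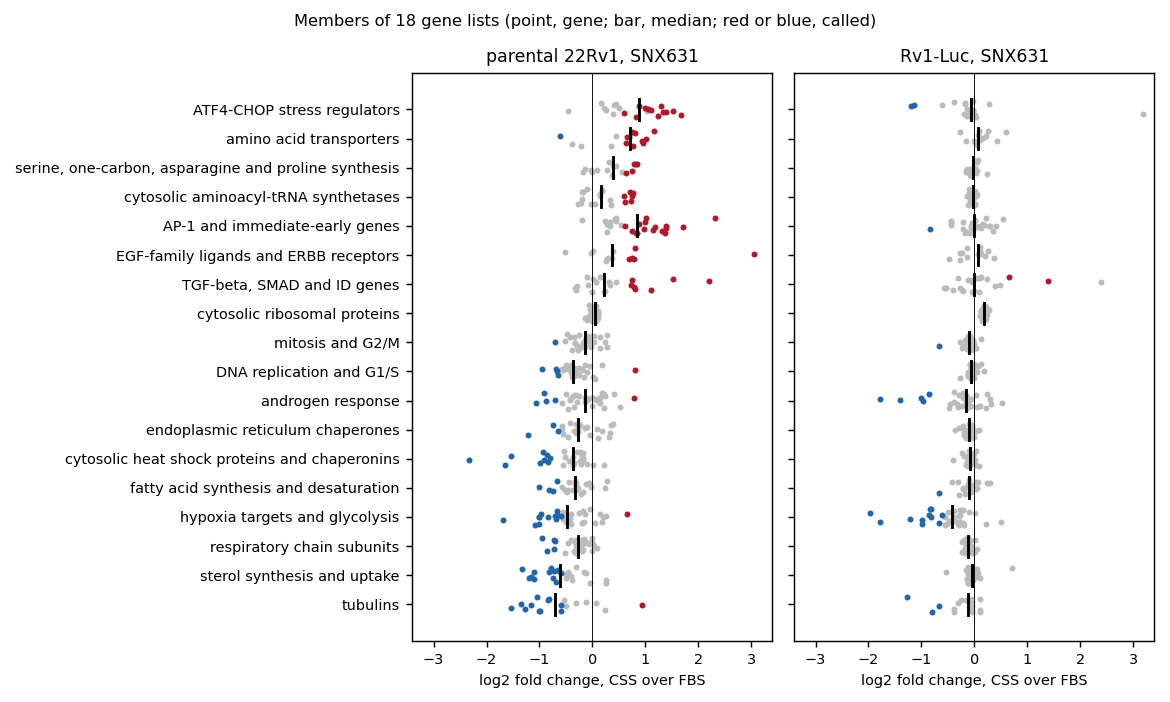
Log2 fold change of CSS over FBS (horizontal axis) for each tested member of 18 gene lists, in parental 22Rv1 with SNX631 (left) and Rv1-Luc with SNX631 (right). Points are genes, red or blue where called higher or lower, and black bars are list medians, which for the stress regulators stood at 0.89 on the left and -0.05 on the right.

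The same depletion in parental cells that received vehicle in place of SNX631 shared no library with this comparison and called more genes: 2174 (10.9%), 1218 higher (6.09%) and 956 lower (4.78%). With 3 libraries a group in both comparisons, 1097 genes were called in both and all went the same way, which is 70% of the genes called under SNX631 and 50.5% of those called under vehicle. Over all 20009 genes the effects under SNX631 and vehicle had a Pearson r of 0.545, and over the 1097 genes called in both a slope of 0.85 for SNX631 on vehicle. Of those 1097 genes, 722 (65.8%) had a smaller change under SNX631 and the median size was 0.85 against 0.93. The share depended on the set of genes: it was 46.5% of the 1567 genes called under SNX631, where the median sizes were 0.83 and 0.82, 82.6% of the 2174 called under vehicle, and 57.7% of all genes tested. Genes are not independent replicates, so these are descriptions.

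The lists with fewer genes called lower under SNX631 than under vehicle included those of lipid synthesis, endoplasmic reticulum folding, glycolysis, replication and the androgen response. The sterol list had 21 genes called lower under vehicle and 14 under SNX631, with medians of -1.02 and -0.61. Endoplasmic reticulum chaperones had 12 of 25 called lower under vehicle and 3 under SNX631, with medians of -0.39 and -0.28, and androgen response genes 10 and 4 of 33 called lower, with medians of -0.41 and -0.14. Hypoxia targets had 21 and 12 called lower, and replication genes 12 and 4. The stress regulators had 15 and 12 called higher, the immediate-early genes 15 and 16, the heat shock proteins 9 and 9 called lower and the tubulins 11 and 11. These counts do not test a difference between the treatments, which was done gene by gene.

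**Figure D3:**
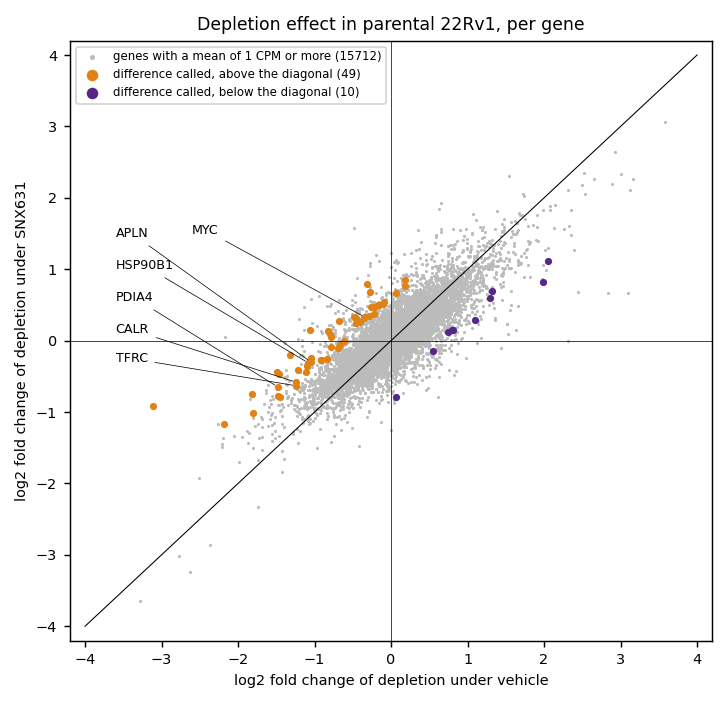
Log2 fold change of depletion in parental 22Rv1 under vehicle (horizontal axis) and under SNX631 (vertical axis), with each grey point a gene at a mean of 1 CPM or more. The 59 genes whose effects differed are in orange where they lie above the diagonal (49) and in purple where they lie below it (10); among the orange points is PDIA4, at -1.48 under vehicle and -0.65 under SNX631.

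The depletion effect under SNX631 differed from that under vehicle for 59 genes (0.295%), with the effect more positive in 49 (0.245%) and more negative in 10 (0.05%). The latter count was 17 without CSS replicate 1 of the SNX631 group, 16 with a replicate block, 17 when only these libraries were fitted and 19 with no filter on low counts. The named gene with the lowest p was HSP90B1 (GRP94), an endoplasmic reticulum chaperone. Under vehicle it stood at 2238, 2235 and 2168 CPM in FBS and 1009, 1058 and 1067 CPM in CSS, and under SNX631 at 1384, 1441 and 1360.1 CPM and 1068, 1173 and 1134 CPM. The log2 changes were -1.08 ± 0.041 and -0.31 ± 0.041, a difference of 0.77 ± 0.058 (SE, adjusted p = 8.34e-15). Every FBS library with SNX631 was below every FBS library with vehicle, while every CSS library with SNX631 was above every CSS library with vehicle. PDIA4, a disulfide isomerase, fell from 504, 499.9 and 483 CPM to 174, 176 and 184 CPM under vehicle and from 299, 315 and 311 CPM to 194, 205 and 190.5 CPM under SNX631, a difference of 0.83 ± 0.071 (SE, adjusted p = 1.39e-12). CALR (calreticulin) differed by 0.65 ± 0.062 (SE, adjusted p = 4.96e-11). Of the 25 chaperones tested, 5 differed and all 5 had a more positive effect under SNX631, against 0.245% of all genes with a more positive effect.

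Genes outside that list also differed. MYC stood at 273, 251 and 272 CPM in FBS and 201, 205 and 223 CPM in CSS under vehicle, and its changes of -0.34 and 0.33 had opposite signs, neither past the fold limit, and differed by 0.67 ± 0.069 (SE, adjusted p = 6.77e-10). TFRC, the transferrin receptor, and APLN (apelin) had more positive effects under SNX631, by differences of 0.61 ± 0.062 and 0.75 ± 0.076. PFKFB3 also differed, by 0.79 ± 0.17 (SE, adjusted p = 0.00545). TMPRSS2 and FKBP5 differed by 0.58 ± 0.11 (SE, adjusted p = 0.000321) and 0.43 ± 0.062 (SE, adjusted p = 2.95e-06), under the fold limit. The FST changes of 1.93 under SNX631 and 0.66 under vehicle differed by 1.27 ± 0.34 (SE, adjusted p = 0.0209), which was not called.

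**Figure D4:**
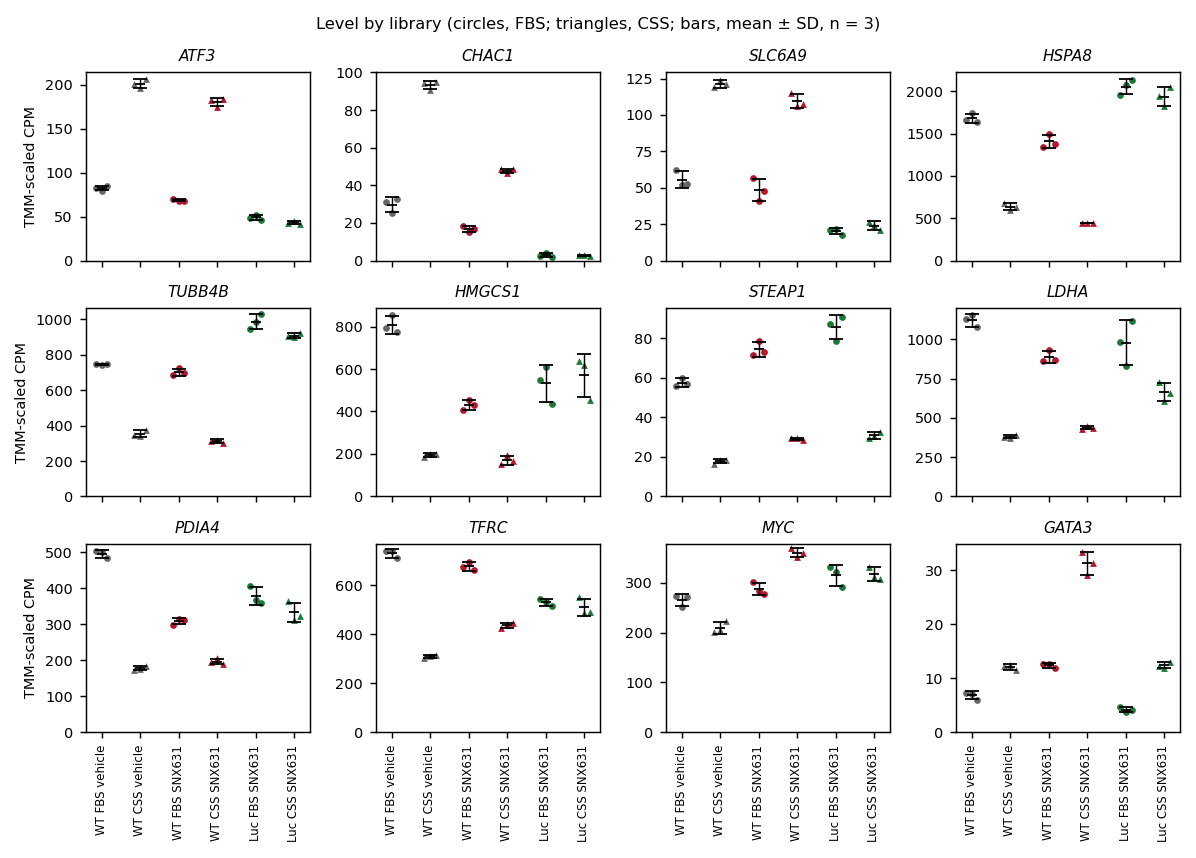
TMM-scaled CPM (vertical axes, from 0) of 12 genes in each library of 6 groups: parental cells with vehicle (grey) or SNX631 (red) and Rv1-Luc with SNX631 (green), in FBS (circles) or CSS (triangles), with mean ± SD of 3 libraries. For CHAC1, SLC6A9 and HSPA8 the FBS and CSS libraries overlap in Rv1-Luc and are apart in both parental pairs, and for STEAP1 and LDHA they are apart in all 3 pairs.

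In Rv1-Luc with SNX631 the same change of serum called 303 genes (1.51%), 119 higher (0.595%) and 184 lower (0.92%). The count called higher was 74 without Rv1-Luc FBS replicate 3, 77 with thinned libraries and 69 when only these libraries were fitted, which called 115 lower. Of the 303, 120 were also called in the parental line, which is 39.6% of the Rv1-Luc genes and 7.66% of the parental genes, and 100 of the 120 went the same way. Over all 20009 genes the parental and Rv1-Luc effects had a Pearson r of 0.143. The effect differed between the lines for 1169 genes (5.84%), more positive in the parental line in 637 (3.18%) and more negative in 532 (2.66%). The lines were sequenced to different depth, 13231860 to 17980526 counts in the parental and 19524225 to 26217948 in the Rv1-Luc libraries with SNX631, and with every library thinned to the smallest, 981 genes differed.

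Of the AP-1 and immediate-early genes 16 of 26 differed, of the amino acid transporters 8 of 15 and of the targets of other serum hormones 7 of 14. Of the stress regulators 0 were called higher and 2 lower in Rv1-Luc, with a median of -0.05, and 11 of 21 differed between lines. Of the heat shock proteins 0 were called in Rv1-Luc and 9 of 29 differed, of the tubulins 3 were called lower and 9 of 18 differed, and of the sterol genes 0 were called and 8 of 26 differed. HSPA8 stood at 1955, 2071 and 2132 CPM in FBS and 1938, 1824 and 2045 CPM in CSS in Rv1-Luc, and the parental effect was lower by a difference of -1.57 ± 0.059 (SE, adjusted p = 5.47e-29). DDIT3 stood at 25.1, 25.7 and 24.7 CPM and 26.1, 24.1 and 24.6 CPM, a difference of 1.69 ± 0.083 (SE, adjusted p = 7.16e-24). TES, a focal adhesion protein, TOX3 and GADD45A, a stress-induced growth arrest gene, differed by 1.17 ± 0.059, 1.25 ± 0.07 and 1.48 ± 0.077, ATF3 by 1.58 ± 0.082, TUBB by -0.96 ± 0.053 and HSPA1B by -1.57 ± 0.072.

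Hypoxia targets and some androgen response genes fell in both lines. Of the 34 hypoxia and glycolysis genes 11 were called lower in Rv1-Luc, with a median of -0.42 against -0.47 in the parental line, and 3 differed between lines. Of the 33 androgen response genes 5 were called lower in Rv1-Luc, with a median of -0.16. Between lines 4 differed, all with a more positive effect in the parental line. STEAP1, of the surface antigen list, stood at 87.2, 78.8 and 90.7 CPM in FBS and 29.5, 30.5 and 32.8 CPM in CSS. Its change of -1.47 ± 0.063, beside -1.35 ± 0.067 in the parental line, gave a difference of 0.12 ± 0.092 (SE, adjusted p = 0.388). SLC45A3 changed by -0.97 ± 0.082 in Rv1-Luc, a difference of -0.09 ± 0.14 (SE, adjusted p = 0.708). CHRNA2 and RAB3B fell in both lines by different amounts. Their differences of 0.53 ± 0.10 (SE, adjusted p = 3.12e-05) and -0.46 ± 0.091 (SE, adjusted p = 5.62e-05) were under the fold limit. TSC22D1 changed by -0.13 ± 0.046 in Rv1-Luc, a difference of 0.91 ± 0.064 (SE, adjusted p = 1.87e-17). STEAP2 changed by -1.39 ± 0.058 in Rv1-Luc, a difference of 0.76 ± 0.082 (SE, adjusted p = 6.47e-11). GATA3 rose in both lines, by 1.58 ± 0.13 in Rv1-Luc. KLF9 fell further in Rv1-Luc, by 1.96 ± 0.075, a difference of 1.06 ± 0.11 (SE, adjusted p = 4.6e-12).

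**Figure D5:**
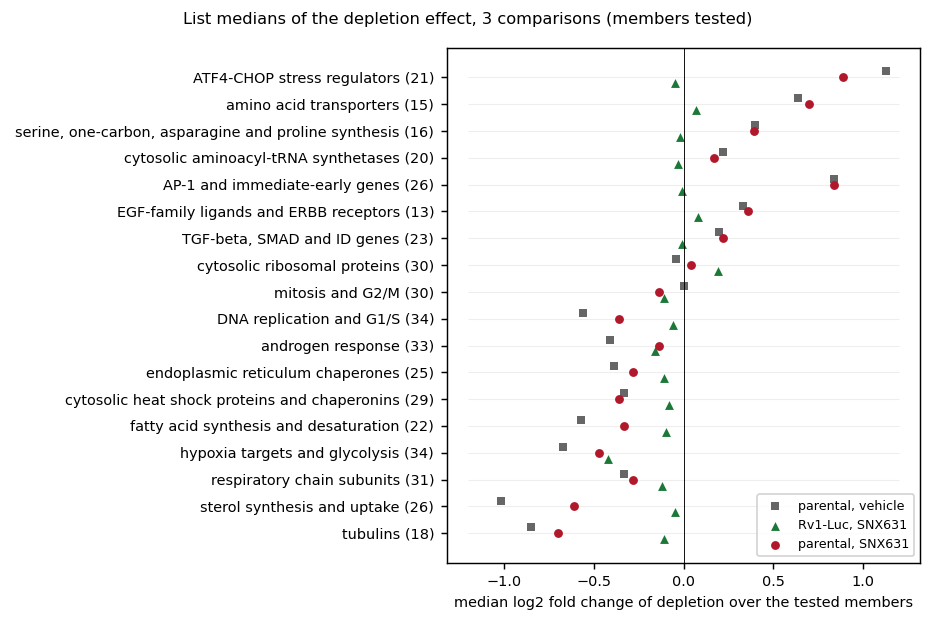
Median log2 fold change of depletion (horizontal axis) over the tested members of 18 gene lists, with the number tested in parentheses, in parental cells with SNX631 (circles), parental cells with vehicle (squares) and Rv1-Luc with SNX631 (triangles). The sterol list stood at -0.61, -1.02 and -0.05 in that order, and the hypoxia list at -0.47, -0.67 and -0.42.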

How the data were processed

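The authors deposited 1 table of estimated counts per gene for 61817 entries in 48 libraries of total RNA. Per the submitters' processing notes, the tools named were FastQC, cutadapt 2.8, STAR 2.7.2b and featureCounts of Subread 2.0.3, with GRCh38.p13 among the builds. Most values were whole (81.6% of those above 0) and the rest fractional. How the fractions arose is not given in the sources used here. The deposited counts were rounded to whole numbers. The 2 transgene entries were set aside. Genes were kept by filterByExpr (minimum count 10, minimum total 15), scaled by TMM and fitted in edgeR 4.0.16 (R 4.3.3) with a robust quasi-likelihood model of 16 groups over all 48 libraries (32 residual degrees of freedom, biological coefficient of variation 4.2%). P-values are two-sided and adjusted by Benjamini-Hochberg over all 20009 genes tested. The limits for a call, an adjusted p under 0.01 and a fold over 1.5, are those of the study. Differences between depletion effects were contrasts of the same fit.

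Named genes were the 12 highest and 12 lowest called genes with a symbol, a mean of at least 5 CPM over the 6 libraries and fractional counts in under 33.3% of the libraries, up to 4 called members per gene list, the 8 genes of lowest p in each difference test, and a short list of set genes. The comparison, gene lists and named genes were chosen with earlier results of these data known. Results for some genes are not reported here. Alternatives were RLE or library-size scaling, no filter, DESeq2 1.42.0, the libraries of each comparison alone, a replicate block, a test against the fold limit, a looser adjusted p of 0.05, thinned counts, and each library left out. Promoter sequences are from RefSeq on GRCh38.p14; 12633 tested symbols matched one.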

Additional observations from a re-analysis of the deposited data

Results flagged for a closer look

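The response of parental 22Rv1 to androgen depletion differed between SNX631 and vehicle, tested as a difference of the 2 log2 fold changes, in 59 genes. Of those with the lowest p, 6 are given here, all with a more positive effect under SNX631: PDIA4 by 0.83, HSP90B1 by 0.77 and CALR by 0.65, which fold proteins in the endoplasmic reticulum; TFRC by 0.61, which imports iron; MYC by 0.67; and APLN by 0.75. PFKFB3 was the other named gene that differed.

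The response under SNX631 differed between the parental line and Rv1-Luc in 1169 genes. Among the 8 with the lowest p, the parental effect was more positive for DDIT3 by 1.69, ATF3 by 1.58, GADD45A by 1.48, TOX3 by 1.25 and TES by 1.17, and more negative for HSPA8 at -1.57, HSPA1B at -1.57 and TUBB at -0.96. KRT80 and KRT81 also differed, with a more positive effect in the parental line. Of the other named genes 83 differed as well, 57 with a more positive and 26 with a more negative effect in the parental line.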

How the results depend on the processing

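Tested against a 1.5-fold change instead of requiring it of the estimate, depletion called 369 genes under SNX631, 630 under vehicle and 59 in Rv1-Luc, and the depletion effect differed in 1 gene between SNX631 and vehicle and in 189 between lines. With an adjusted p under 0.05 and no fold limit these became 8129, 8981, 2539, 627 and 5554. Rv1-Luc alone gave 184 genes when only its own libraries were fitted. The other 76 counts stayed within 1.5 times of those reported. Of the medians of gene lists under other scalings, the replicate block or with 1 library left out, 366 moved by less than the spread between replicates and 48 by more, among them the sterol list (-0.65 to -0.56), the amino acid transporters (0.62 to 0.75), the heat shock proteins (-0.39 to -0.31) and the androgen response (-0.17 to -0.09), which kept their sign. The median changed sign under at least 1 alternative for the PPAR and LXR targets, the Wnt pathway genes and the fibroblast, endothelial and basal markers, and was 0 under some for the immunoglobulin and plasma cell markers. Leaving out 1 library gave 1442 to 1569 genes under SNX631, 1937 to 2187 under vehicle, 230 to 326 in Rv1-Luc, 40 to 68 for the difference from vehicle and 1051 to 1183 for that between lines. Scaling by library size alone gave 1496 higher and 746 lower under vehicle and 35 higher and 13 lower for the difference from vehicle. Deviations from the group mean of same-numbered FBS and CSS libraries with SNX631 correlated at 0.216, 0.138 and -0.0421 for replicates 1, 2 and 3. Replicates 1 and 2 correlated best with their own number and replicate 3 did not, so whether the numbers pair the libraries is not settled. A replicate block gave 1553 genes, 1527 of them shared. The cause of these changes was not tested. Depth limits genes of few counts: thinned to the smallest library, 1355 genes were called under SNX631.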

Other observations

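Host genes of small nucleolar RNAs, a group chosen after its values were seen, were called higher in 4 of 27 tested and lower in 0, with a median log2 fold change of 0.14 under SNX631, beside 6 called higher and 2 lower under vehicle and 0 in Rv1-Luc. The 4 make up 14.8% of the group, beside 4.86% of all genes called higher under SNX631. Of these 27 genes 24 had fractional counts in at least 33.3% of the libraries, so their levels are uncertain. No gene of MHC class I antigen presentation was called of 16 tested under SNX631, beside 7.83% of all genes. Under vehicle 3 were called lower, beside 4.78% of all genes. Of 26 core Mediator subunits 1 was called lower under each treatment (3.85%), beside 2.97% of all genes under SNX631 and 4.78% under vehicle. Of 16 genes of polyamine metabolism 1 was called higher under each (6.25%), beside 4.86% and 6.09% of all genes. Both lists were thus near the shares of all genes.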
